A study of Rattus norvegicus with 8 samples.

Results

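The genes described here were listed under methylation, sulfation and glucuronidation of flavonols, and were measured in the colon mucosa of the rat. The list is partial, and not all of its genes are known to act on flavonols. They are 9 genes taken from a given list: Ugdh, Papss1 and Papss2, which make the activated donors, the sulfotransferases Sult1a1, Sult1b1, Sult1c2 and Sult2b1, and the glycosyltransferases Ugt2b34 and Ugt8. Probe sets were assigned by their single gene symbol in the platform annotation, which found 11 probe sets of 8 genes. Ugt2b34 had no probe set under that symbol, and RefSeq gives Ugt2b34 as an older name of Ugt2b10, which has 1 probe set. That probe set was included, giving 12 probe sets among 31042 on the array. Where a gene had more than 1 probe set, the brightest led and the other was set beside it. All 9 leading probe sets passed the filter on dim signals, and 1 further probe set, of Ugt8, did not.

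The rats ate the breeder diet RM3 [E] FG SQC for 11 weeks, either as it was (4 arrays, the control group) or with quercetin, a plant flavonol, at 10 g per kg of diet (4 arrays). Total RNA came from scrapings of the distal colon mucosa, and each array was hybridised with biotin-labelled RNA. The labels name no strain, sex or age, and they do not state that each array holds a separate rat, and a p-value here therefore reflects how far these 8 samples scatter, a scatter that may be technical. The study asked how transcripts of the mucosa differ between the diets.

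Sulfation and glucuronidation make a flavonol more soluble in water and ready it for export. Quercetin carries several hydroxyl groups, and intestinal and liver cells can attach methyl, sulfate or glucuronic acid to them. Each reaction needs a charged donor: S-adenosylmethionine for methyl groups, PAPS for sulfate and UDP-glucuronic acid for glucuronic acid. Cytosolic sulfotransferases use PAPS, and UDP-glucuronosyltransferases of the endoplasmic reticulum use UDP-glucuronic acid. The gut wall is known as a site where much of an eaten flavonol is conjugated before it reaches the blood.

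The platform tells these genes apart only in part. A further probe set shared by Sult1c2 and another gene, and 2 probe sets shared by 8 genes of the UGT1A family, which holds major glucuronosyltransferases of the gut, were not analysed here. None of the 9 genes is a methyltransferase, and methylation was examined through a list of other genes further on.

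None of the 9 genes passed the test for a difference between the diets. In limma, 0 of their 11 tested probe sets had an adjusted p under 0.05, while 0.0107% of all 18625 tested probe sets did. At an unadjusted p under 0.05 there were 2 of the 11, both of Sult2b1, against a background of 10.8%. The groups did not overlap in 1 of the 9 leading probe sets, again that of Sult2b1, and 6.39% of all tested probe sets had no overlap. Of the 9 leading probe sets 7 were higher and 2 lower in quercetin, with a median log2 fold change of 0.09, against 51.3% higher and a median of 0.01 over all tested probe sets. All fold changes are on the log2(signal + 16) scale, which understates the change of dim genes. In these bulk samples fewer cells of a type and less RNA per cell cannot be told apart.

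**Figure D1:**
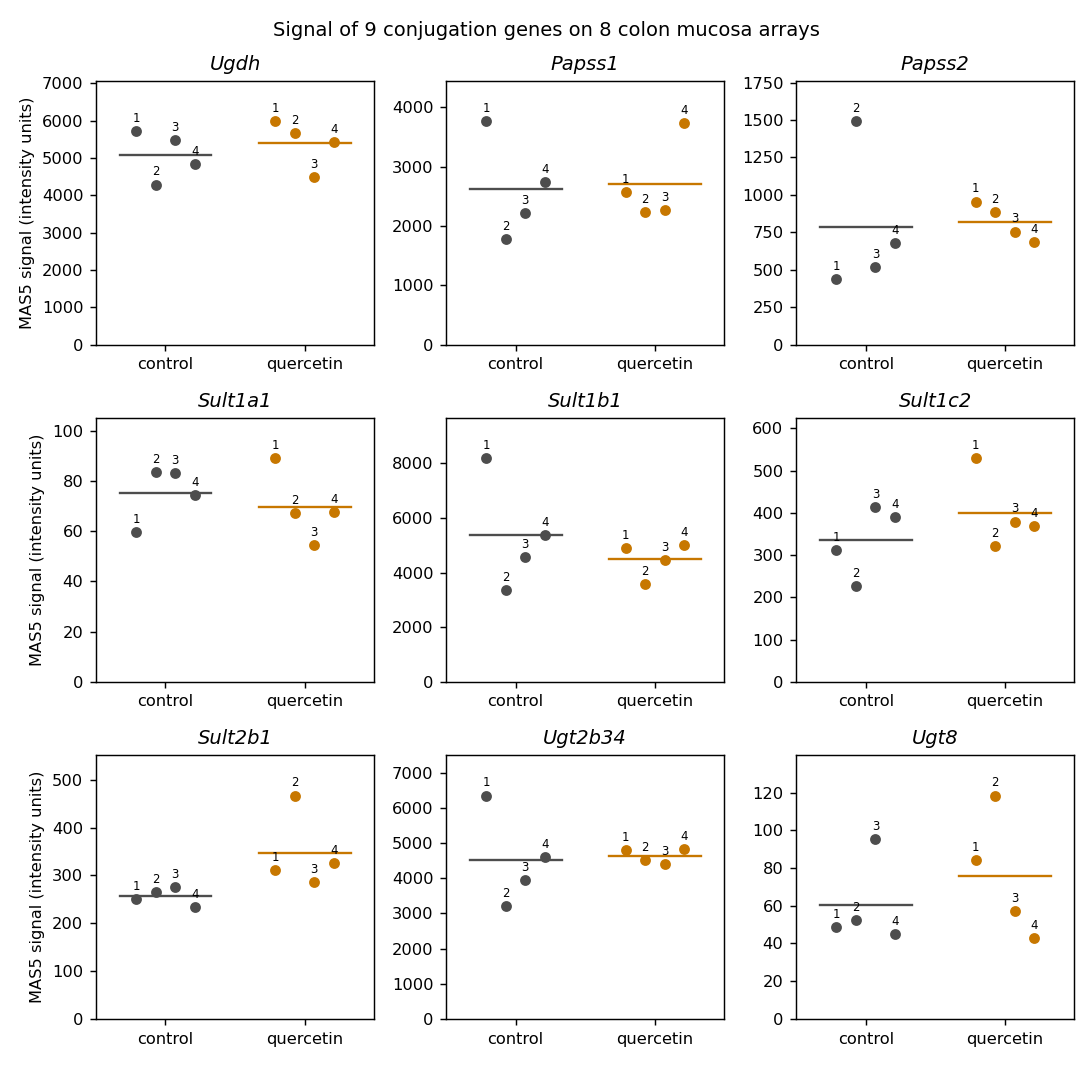
Signal of the leading probe set of each of the 9 genes in MAS5 intensity units, each panel with its own axis from 0, for the 4 control and 4 quercetin arrays. Points are single arrays with their replicate number and lines are group means. Only Sult2b1 shows all 4 quercetin arrays above all 4 control arrays, and control array 1 is the highest point for Papss1, Sult1b1 and Ugt2b34.

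Promoters are shown for a pair of genes, Sult2b1, whose probe sets had the largest differences, and Ugdh, where matches to both of the searched motifs overlap. The motifs were GCGTG, the core of the element bound by the Ah receptor, and TGACNNNGC, the core of the antioxidant response element bound by NRF2. Both factors are known as regulators of conjugation enzymes. They were searched in the 250 bases before the transcript start that the RefSeq promoter table gives for each gene (build GRCr8). That window ends at the outer bound of the gene for 5 of the 9, Sult2b1 among them. For the other 4, Ugdh, Papss1, Papss2 and Ugt2b34, it reaches into or lies within the gene, and the Ugdh window is printed only up to that bound. Sequences run 5′ to 3′ along the gene, and capitals mark a match on either strand.
Sult2b1 promoter, chr1:105397745-105397994, minus strand: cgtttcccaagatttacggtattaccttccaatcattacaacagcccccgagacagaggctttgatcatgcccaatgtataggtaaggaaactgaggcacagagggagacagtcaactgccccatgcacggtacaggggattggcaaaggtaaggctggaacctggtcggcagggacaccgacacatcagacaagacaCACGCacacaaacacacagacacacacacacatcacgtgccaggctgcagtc
Ugdh promoter, chr14:43202268-43202479, plus strand: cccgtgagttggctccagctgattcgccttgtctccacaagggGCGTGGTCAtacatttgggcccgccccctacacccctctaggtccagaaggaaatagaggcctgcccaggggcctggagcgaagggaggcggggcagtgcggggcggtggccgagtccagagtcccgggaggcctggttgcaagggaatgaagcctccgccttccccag

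The match in the Sult2b1 promoter is a single GCGTG core, read on the opposite strand. In the Ugdh promoter the run in capitals holds GCGTG on the printed strand and TGACNNNGC on the opposite one, with all letters of the first inside the second. RefSeq promoters were found for all 9 genes. GCGTG occurred in 4 of them (Ugdh, Papss1, Sult2b1 and Ugt8), and in 25.9% of 33469 promoters of the same length. TGACNNNGC occurred in 1 of the 9 and in 10.1% of all. GC content ran from 37.2% for Sult1b1 to 81.2% for Ugt8, with a median of 51.2% over all promoters. A match describes the letters only, and no array value bears on binding there.

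Ugdh encodes UDP-glucose dehydrogenase, the enzyme that makes UDP-glucuronic acid. Its signal was 5727, 4291, 5484 and 4833 on control arrays 1 to 4 and 5987, 5659.8, 4504 and 5427 on quercetin arrays 1 to 4. The groups overlapped almost fully, the lowest value being control array 2 and the highest quercetin array 1. Group means were 5084 ± 649 (SD, n = 4) and 5394 ± 636 (SD, n = 4). This was a log2 fold change of 0.09 (SE 0.136, limma adjusted p = 0.865) with a 95% interval of -0.21 to 0.38. Ugdh had the smallest standard error of the 9 leading probe sets, and its interval corresponds to 0.866 to 1.3 times the control level.

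Papss1 and Papss2 are the PAPS synthases, enzymes that turn inorganic sulfate into the donor used by all sulfotransferases. The Papss1 signal was 3767, 1781, 2219 and 2749 on the control arrays and 2574, 2245, 2272 and 3742 on the quercetin arrays. Control array 1 and quercetin array 4 were high and nearly equal, and control array 2 was the lowest. Papss1 thus had a log2 fold change of 0.07 (SE 0.222, limma adjusted p = 0.946), the nearest to 0 among the 9 genes. It turned to -0.10 without control array 2, to -0.10 without quercetin array 4 and to -0.022 with the GAPDH ratio as a covariate.

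The leading Papss2 probe set read 440.0, 1492, 518 and 680.3 on the control arrays and 956, 883, 755 and 686 on the quercetin arrays. Control array 2 lay far above every other array. All 4 quercetin arrays lay above the other 3 control arrays, with a narrow margin between control array 4 (680.3) and quercetin array 4 (686). Over all arrays its log2 fold change was 0.22 (SE 0.294, limma adjusted p = 0.832), and without control array 2 it was 0.58 (adjusted p = 0.339). Without control array 1, the lowest of the 8, it was 0.0083. The second Papss2 probe set read 205, 247, 267 and 223 on the control arrays and 284, 253, 256 and 265 on the quercetin arrays. Control array 2 did not stand out there, so the probe sets disagreed on that array. Its log2 fold change was 0.16 (SE 0.149, limma adjusted p = 0.739), or 0.19 without control array 2.

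Control array 2 also had the highest ratio of 3′ to 5′ signal of the array's GAPDH control, 3.79 against 1.58 to 2.36 on the other 7 arrays, a ratio that goes up with degraded RNA. For the beta-actin control the same ratio was 21.4, with 6.79 to 12.4 elsewhere. With the GAPDH ratio as a covariate the log2 fold change of the leading Papss2 probe set was 0.35 (adjusted p = 0.335) and that of the second 0.18 (adjusted p = 0.619).

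**Figure D2:**
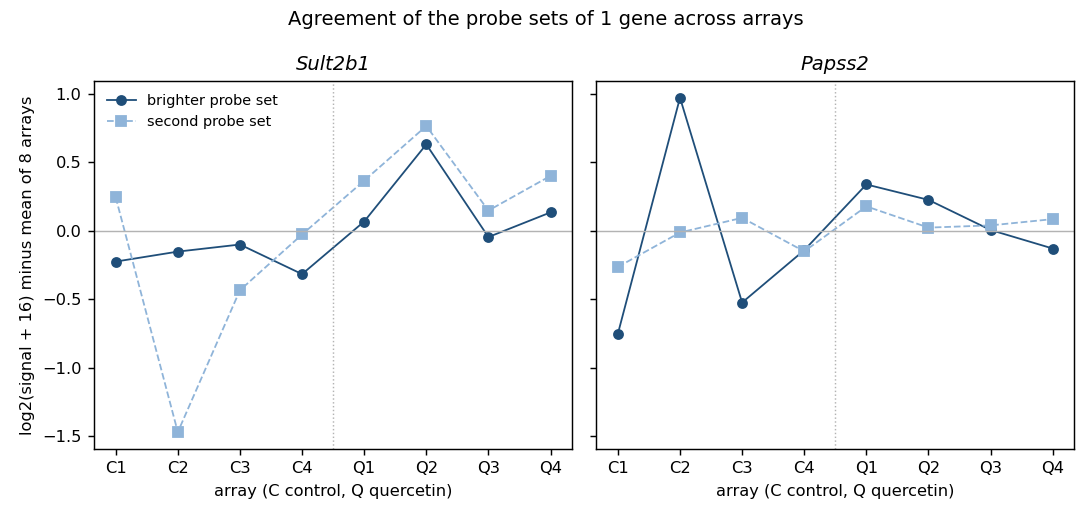
Signals of both probe sets of Sult2b1 (left) and Papss2 (right) on each array, as log2(signal + 16) minus the mean of the 8 arrays, control arrays C1 to C4 and quercetin arrays Q1 to Q4. Lines join the arrays only to guide the eye. The Sult2b1 probe sets both peak on quercetin array 2 and part on control array 2, and the Papss2 probe sets part on control array 2, where the brighter one peaks.

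Sult2b1 had the largest differences among the sulfotransferases. It encodes an enzyme best known for sulfating cholesterol and related steroids rather than phenols. Its leading probe set read 251, 264, 275 and 234 on the control arrays and 311, 467, 286 and 326 on the quercetin arrays. All quercetin values exceeded all control values, with a narrow margin between control array 3 and quercetin array 3, and quercetin array 2 was well above the rest. The means were 256 ± 17.6 (SD, n = 4) and 347 ± 81.3 (SD, n = 4). The log2 fold change was 0.40 (SE 0.170, 95% interval 0.03 to 0.76, limma adjusted p = 0.432), or 1.32-fold on that scale. Without quercetin array 2 it was 0.25 (adjusted p = 0.725).

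The second Sult2b1 probe set pointed the same way with a larger difference. It read 199.9, 49.7, 119 and 163 on the control arrays and 219, 294, 186 and 225 on the quercetin arrays. The groups overlapped through control array 1 and quercetin array 3, and control array 2 was the lowest of all by a wide gap. Its log2 fold change was 0.84 (SE 0.309, 95% interval 0.17 to 1.51, limma adjusted p = 0.362), and without control array 2 it was 0.49 (adjusted p = 0.436). The mean of both probe sets gave 0.62 (adjusted p = 0.34). Both probe sets kept a positive sign in every alternative setting run on them, and neither passed the adjusted threshold in any.

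Sult1b1, a sulfotransferase of phenols and thyroid hormones, is known to be abundant in the gut. Its probe set read 8182, 3371, 4579 and 5359 on the control arrays and 4906, 3598, 4450.4 and 5003 on the quercetin arrays. Control array 1 was far above the others and control array 2 was the lowest, so that all quercetin values lay inside the control range. The means were 5373 ± 2043 (SD, n = 4) and 4489 ± 641 (SD, n = 4). The log2 fold change was -0.20 (SE 0.221, 95% interval -0.67 to 0.28, limma adjusted p = 0.797). It was 0.031 without control array 1 and -0.39 without control array 2, so its sign and size rest on those arrays.

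Sult1a1, the main phenol sulfotransferase of the liver and an enzyme that accepts flavonols, gave a low signal in this mucosa. It read 59.6, 83.8, 83.1 and 74.5 on the control arrays and 89.0, 67.4, 54.5 and 67.5 on the quercetin arrays. The quercetin group held both the highest and the lowest of the 8 values. For Sult1a1 the log2 fold change was -0.10 (SE 0.218, 95% interval -0.57 to 0.37, limma adjusted p = 0.914). It was -0.20 without quercetin array 1 and -0.0093 without quercetin array 3.

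Sult1c2, a further member of the phenol-sulfating family, read 313, 227, 415 and 389 on the control arrays and 529, 321, 379.6 and 369 on the quercetin arrays. Quercetin array 1 was the highest and control array 2 the lowest, and the other values mixed. The log2 fold change was 0.25 (SE 0.206, 95% interval -0.20 to 0.70, limma adjusted p = 0.71). Without control arrays 1 and 2 it was -0.031.

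Ugt2b34, the glucuronosyltransferase that RefSeq now lists as Ugt2b10, varied mainly among the control arrays. It read 6349, 3195, 3944 and 4603 on the control arrays and 4798, 4503, 4410.3 and 4824 on the quercetin arrays. The quercetin arrays lay close together while the control arrays spread on either side of them, with control array 1 at the top and control array 2 at the bottom. The coefficient of variation was 29.8% in the control group and 4.49% in the quercetin group. The means were 4523 ± 1347 (SD, n = 4) and 4634 ± 208 (SD, n = 4), and the log2 fold change was 0.08 (SE 0.177, 95% interval -0.30 to 0.46, limma adjusted p = 0.914). Without control array 2 it was -0.072.

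Ugt8 belongs to the same superfamily but attaches galactose to ceramide, a step in making the lipids of myelin, and is not known for glucuronidation. Its leading probe set was dim, at 48.9, 52.4, 95.2 and 44.9 on the control arrays and 84.4, 118, 57.3 and 43.2 on the quercetin arrays. Quercetin array 2 and control array 3 were the highest, and the groups overlapped. The log2 fold change was 0.24 (SE 0.300, limma adjusted p = 0.821). It was 0.033 without quercetin array 2 and 0.44 without control array 3, the highest arrays of their groups. The second Ugt8 probe set lay between 0.655 and 21.1 on all 8 arrays, below the filter, with control array 2 and quercetin array 2 above the rest. In the fit without the filter its log2 fold change was 0.01 (SE 0.309, adjusted p = 0.995).

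**Figure D3:**
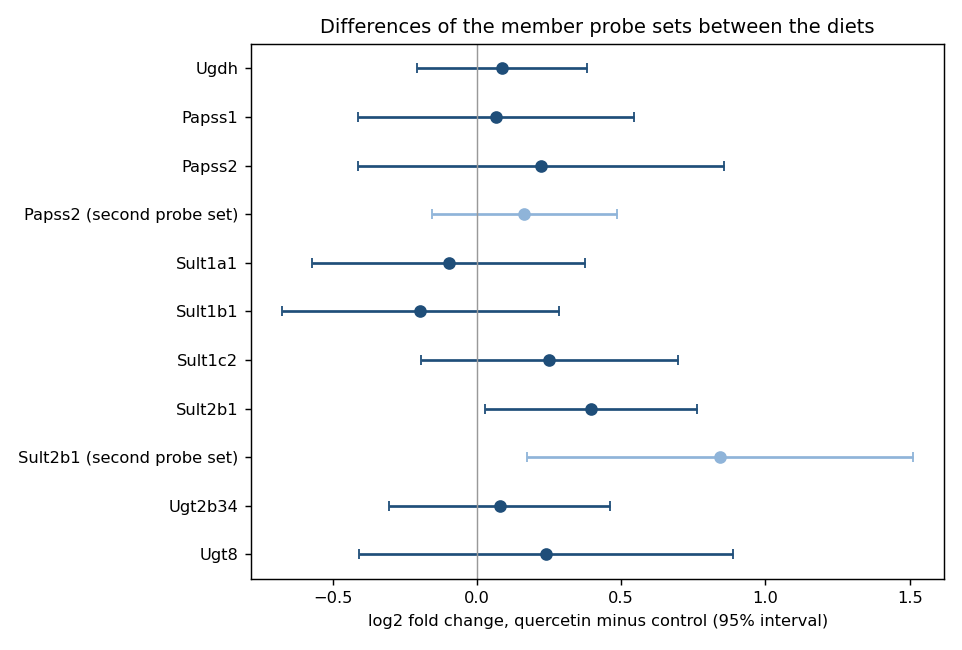
Log2 fold change of quercetin minus control for the 11 tested probe sets, with 95% intervals from limma on the log2(signal + 16) scale. Dark points are the leading probe sets and light points second probe sets. The intervals of both Sult2b1 probe sets lie above 0 and the other 9 include 0, while no probe set passed after adjustment over all tested probe sets.

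The intervals give the sizes that these arrays leave possible. Their half-widths ran from 0.29 for Ugdh to 0.65 for Ugt8 among the 9 leading probe sets. They are not adjusted for the number of probe sets tested, and both Sult2b1 differences exceeded theirs without passing the adjusted threshold. The data thus do not show that these genes hold the same level under both diets.

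The arrays at the extremes recurred across the members. Control array 2 was the lowest of the 8 in 5 of the 9 leading probe sets, against 19.5% of all tested probe sets, and these were Ugdh, Papss1, Sult1b1, Sult1c2 and Ugt2b34. It was the highest in 1 of the 9, against 23.8% of all. This is the array with the highest 3′ to 5′ ratios of the GAPDH and beta-actin controls, and the cause of its low values was not tested. Control array 1 was the highest in 3, Papss1, Sult1b1 and Ugt2b34, against 14.8% of all. Quercetin array 1 was also the highest in 3, Ugdh, Sult1a1 and Sult1c2, against 12.3% of all. The spread on the log2 scale was wider in the control than in the quercetin group for 6 of the 9, against 59% of all tested probe sets.

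Markers of cell types that such scrapings may hold, and of hepatocytes as a tissue absent from them, were set beside these values. All 14 absorptive colonocyte markers and all 12 general epithelial markers passed the filter, which keeps the upper 60% by mean and is not a call of detection. Car1 and Guca2a were bright among the first and Krt8 and Krt19 among the second. The summed signal of the absorptive list was 82295 on control array 1, the highest, and 58760.2 on control array 2, the lowest. These arrays were also at the extremes for Sult1b1, Papss1 and Ugt2b34. On the other control arrays the order of the sum differed from that of these genes. Control array 4 had the next lowest sum, 63963, and control array 3 had 76417, but all of these genes were higher on control array 4 than on control array 3. The sum is weighted to its brightest gene, Car1, at 21758 on control array 3 and 11193 on control array 4. Single markers of the list went either way between control arrays 3 and 4. Krt20 (6286 and 6815) and Slc16a1 (2616 and 3105) were among those higher on control array 4, and Car2 (10441 and 7343) was lower there, as Car1 was. On the quercetin arrays the absorptive sum ran from 70349.6 to 78503, inside the control range. Of the 14 absorptive markers 9 were higher and 5 lower in quercetin, with a median log2 fold change of 0.13. The part of cell composition in the spread of the members was not tested. The general epithelial sum was 106010.5 to 113281 in control (108186 on control array 2) and 98388 to 108070.1 in quercetin. That sum is weighted to bright genes such as Krt8 and Krt19, which were lower in quercetin, at -0.17 and -0.16. Of the 12 markers 8 were higher and 4 lower, with a median log2 fold change of 0.03.

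Smooth muscle markers summed to 3883 to 5774 in control and 3360.0 to 3725 in quercetin, without overlap, and most of this sum came from Tpm1 and Mylk. Of its 12 markers 7 passed the filter, and Actg2, Tagln, Cnn1, Myl9 and Lmod1 did not. Of these 7 genes 4 were higher and 3 lower in quercetin, so that the median log2 fold change of 0.11 had the opposite sign to the sum. Neither was tested for its part in the Sult2b1 values. Of 8 goblet cell markers 5 were higher and 3 lower, with sums of 65820.0 to 76216 in control and 63674 to 77771 in quercetin. All 6 enteroendocrine markers with a probe set passed the filter, 5 higher and 1 lower, with a median log2 fold change of 0.21. Their sums of 1365 to 2541 in control and 1659 to 3110.2 in quercetin overlapped. Of that list Chga, at 0.81 (SE 0.281, limma adjusted p = 0.344), had an unadjusted p under 0.05, as 10.8% of all tested probe sets did. So did 2 absorptive markers, Slc9a3 at 0.72 (limma adjusted p = 0.273) and Slc16a1 at 0.43 (limma adjusted p = 0.388). The goblet cell marker Spink4, at 1.37 (limma adjusted p = 0.344), and 1 macrophage and dendritic cell marker were also higher at that level, and 1 smooth muscle marker was lower. The part of the enteroendocrine list in the Sult2b1 values was not tested. Of 8 macrophage and dendritic cell markers 5 passed the filter, 3 higher and 2 lower, with a median of 0.019. Of 2 blood markers 1 passed, Hbb at -0.66 (SE 0.374, limma adjusted p = 0.564). Few markers of T cells (2 of 8), B and plasma cells (2 of 5), endothelium (2 of 5), fibroblasts (3 of 8) and hepatocytes (2 of 6) passed the filter. No marker was listed at 0, and in none of the 12 marker lists did a gene pass limma's adjusted threshold.

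A wider set of conjugation genes was then counted, with 105 listed names, 76 genes with a probe set and 51 tested. In limma 0 of the 51 had an adjusted p under 0.05. At an unadjusted p under 0.05 there were 5 higher and 2 lower, against 5.04% and 5.71% of all tested probe sets. The groups did not overlap for 4 genes higher and 1 lower in quercetin, against 3.09% and 3.3%. The median log2 fold change was 0.06, with 31 higher and 20 lower.

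The genes of methyl transfer and of the cycle that restores S-adenosylmethionine held 5 of those 7 genes at an unadjusted p under 0.05. These were 5 of 16 tested, against 10.8% of all tested probe sets. Of the 16, 11 were higher and 5 lower, with a median of 0.05. Ahcy, the hydrolase that clears the product S-adenosylhomocysteine, read 859, 855, 1082 and 918 on the control arrays and 1486, 1746, 1146 and 1368 on the quercetin arrays. Every quercetin value was above every control value, with control array 3 nearest to quercetin array 3. Its log2 fold change was 0.61 (SE 0.149, limma adjusted p = 0.26). Cbs, which draws homocysteine off towards cysteine, read 124, 137, 236 and 156 in control and 237, 271, 249.8 and 277 in quercetin. Control array 3 almost touched the quercetin range, and the log2 fold change was 0.65 (SE 0.194, limma adjusted p = 0.285).

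Other genes of that list were chosen after their values were seen. Mat2a, the synthetase that makes S-adenosylmethionine outside the liver, read 7307, 6786, 4494 and 4576 in control and 3792, 3852, 4480.0 and 3204 in quercetin. All quercetin values were below all control values, but control array 3 and quercetin array 3 were almost equal. Its log2 fold change was -0.57 (SE 0.176, limma adjusted p = 0.304), and -0.25 without control arrays 1 and 2, the highest ones. Another Mat2a probe set went the other way, at 0.40 (SE 0.271, limma adjusted p = 0.637), and a further one was below the filter. Shmt1, which feeds the folate pool that supplies methyl groups, had 0.72 (SE 0.279, limma adjusted p = 0.384), and Lcmt1, which methylates a protein phosphatase, had -0.47 (SE 0.202, limma adjusted p = 0.429).

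Of the genes for sulfate supply, PAPS transport and recycling 17 were tested, 9 higher and 8 lower, with a median of 0.07. Slc35b2, which carries PAPS into the Golgi, read 329, 451, 495 and 478 in control and 528, 698, 532 and 613 in quercetin, with no overlap. Its log2 fold change was 0.43 (SE 0.163, limma adjusted p = 0.372). Slc26a2, a sulfate transporter of the cell surface, was dim and scattered, at 5.77, 36.8, 90.3 and 14.7 in control and 84.5, 84.2, 142 and 49.5 in quercetin. Slc26a2 had a log2 fold change of 1.20 (SE 0.442, limma adjusted p = 0.363), and control array 3 lay above 3 of the quercetin arrays.

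The remaining lists held no gene at an unadjusted p under 0.05 in limma and none without overlap. Of 9 other cytosolic sulfotransferases with a probe set 2 were tested, Sult1c2a at 0.32 (SE 0.241) and Sult5a1 at -0.45 (SE 0.551), and the other 7 were below the filter. Of 8 other glycosyltransferases 4 were tested, 2 higher and 2 lower, with Ugcg, the glucosylceramide synthase, at -0.20 (SE 0.167) and Ugt2a1 at 0.23 (SE 0.283). Genes that supply or use UDP-glucuronic acid or cleave glucuronides had 8 higher and 4 lower of 12 tested, with a median of 0.07. Among them Gusb, the lysosomal beta-glucuronidase, had 0.40 (SE 0.192, limma adjusted p = 0.482) and B3gat3, which uses UDP-glucuronic acid to build proteoglycan linkers, 0.43 (SE 0.262, limma adjusted p = 0.596).

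**Figure D4:**
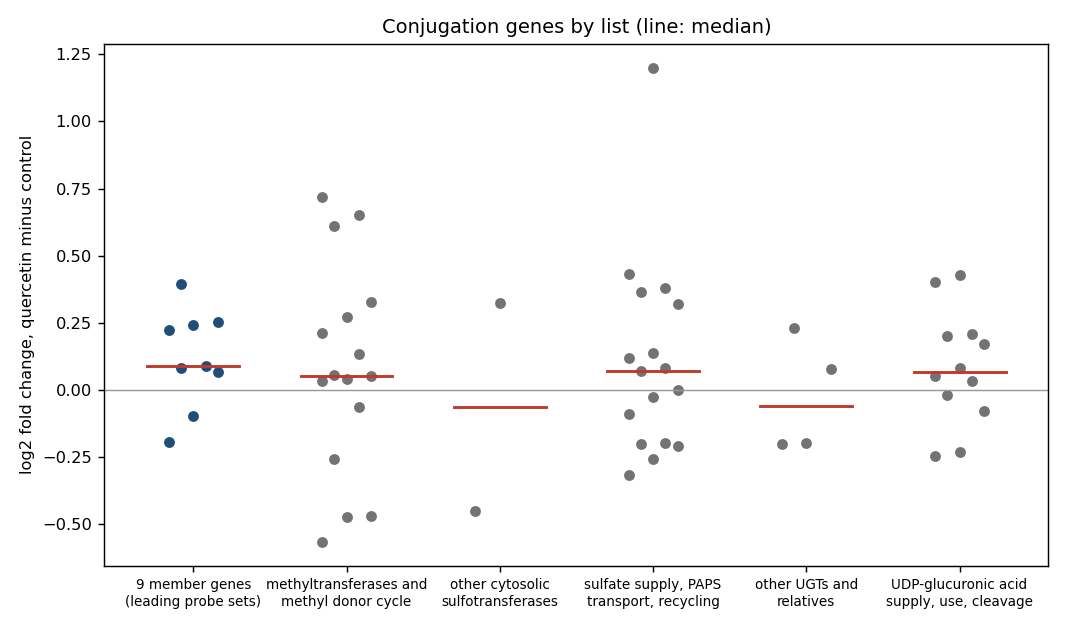
Log2 fold change of quercetin minus control for the leading probe sets of the 9 member genes and for the tested genes of the 5 wider lists, 1 point per gene, on the log2(signal + 16) scale, with the median of each list as a line. The medians lie near 0. The methyl donor, sulfate supply and UDP-glucuronic acid lists each have points further from 0 on either side than the members. The largest point, at 1.20, is in the sulfate supply list.

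Genes whose pattern over the 8 arrays was most like that of a member were sought for the pair of members with the largest differences, by the root mean square difference of mean-centred log2 values, among 10257 genes. Nearest to Sult2b1 were mrpl11, with a difference of 0.054, Ift52 with 0.096 and Zfp639 with 0.096. Their log2 fold changes were 0.39, 0.35 and 0.37. Nearest to Sult1c2 were Polr3k (0.101), Sirt3 (0.111) and Dtwd2 (0.118), with log2 fold changes of 0.23, 0.22 and 0.26. These genes were picked for likeness on the same 8 arrays, so fold changes near that of the member follow from the choice. Shared regulation was not tested.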

How the data were processed

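The authors deposited 1 intensity per probe set and array on a linear scale, from MAS5 per the submitters' processing notes. MAS5 scales each array to a common level, here a trimmed mean of 200.1. Any further step or genome build was not given in the sources used here. The array's 57 control probe sets were removed from its 31099, signals were taken as log2(signal + 16), and the upper 60% by mean over the 8 arrays were tested, which left 18625 with a mean log2 of at least 5.50.

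The diets were contrasted in limma 3.58.1 under R 4.3.3 (lmFit and trended eBayes, two-sided tests, Benjamini-Hochberg over all tested probe sets, threshold 0.05), checked on simulated data. Every SE, interval and adjusted p is from this fit unless a setting is named. Precision is limited by having 4 arrays a diet, with a median SE of 0.222 over all tested probe sets.

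The members, lists and alternatives were chosen with earlier results of these data known. All members are described. Of each wider list the 2 tested genes with the smallest p were named, and Mat2a, Shmt1 and Lcmt1 were added with their values in view. The patterns most like a member were taken for the 2 members with the largest change, 3 genes each.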

Additional observations from a re-analysis of the deposited data

Results flagged for a closer look

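Of 48 groups of 4 arrays examined (the tested probe sets of the members and the other genes named, in each diet), 1 held an array set well apart from its group, and about 1 in 20 groups, or 2.4 here, would by chance. It was the leading Ugt8 probe set in the control group, high on control array 3 at 95.2 against 44.9 to 52.4 on the other control arrays. The gap to the nearest array was 0.852 of the range. Ugt8 is dim on these arrays.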

How the results depend on the processing

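In 20 alternative settings, 8 of which left out 1 array each, 0 of 9 member genes and 0 of the other conjugation genes passed limma's adjusted threshold. The median log2 fold change of the members stayed between 0.0081 and 0.18 when arrays were left out, and that of the other genes between 0.016 and 0.11. Of 209 alternative values of member probe sets 6 turned sign: Papss1 (-0.022 with the GAPDH ratio as a covariate, -0.10 without control array 2, -0.10 without quercetin array 4), Sult1c2 (-0.031 without control arrays 1 and 2), Sult1b1 (0.031 without control array 1) and Ugt2b34 (-0.072 without control array 2). Among the other named genes Sult5a1 turned to 0.16 with array weights. With 1 array left out, log2 fold changes ran from -0.10 to 0.26 for Papss1, -0.39 to 0.031 for Sult1b1 and -0.072 to 0.26 for Ugt2b34, and, with no turn of sign, from 0.0081 to 0.17 for Ugdh, -0.20 to -0.0093 for Sult1a1, 0.084 to 0.36 for Sult1c2 and 0.033 to 0.44 for Ugt8. The cause of these turns was not tested. Over all probe sets, the 2 past the threshold became 1 with a pseudocount of 1, quantile normalisation, median centring, no filter, no trend, or the sample number as a replicate block, and 0 without control arrays 1 and 2. With 1 array left out they were 1 to 2. The replicate block gave 0 member genes and 0 other conjugation genes past the threshold, with the medians of 0.09 and 0.06 as before, and the arrays share only a number: deviations from the group means of same-numbered arrays correlated at -0.023, 0.16, -0.15 and 0.14 for numbers 1 to 4, and 2 of the 4 control arrays correlated best with their own number.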
